A study of Saccharomyces cerevisiae with 8 samples.

Results

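The proteasome genes of budding yeast were examined in a time course of growing cells set against old cells. The set held 35 genes. It comprised the 14 subunit genes of the 20S core, the 19 subunit genes of the 19S regulatory particle, BLM10, whose protein caps the core, and RPN4, the transcriptional activator of proteasome genes. Members were found by matching their locus names to the systematic names on the arrays, without use of any measured value. The list itself was chosen with earlier results of these data known. All 35 were found among 6225 systematic names and all 35 were among the 5650 genes tested. The strain was S288C, a laboratory strain of Saccharomyces cerevisiae, in both channels of every array. Cells were grown in batch culture in minimal medium. Each of 8 arrays, recorded for 16, 17, 19, 20, 21, 22, 23 and 24 h, carried total RNA of exponentially growing cells in Cy5 and total RNA of cells aged 64 h in Cy3. There was 1 array per time, the dyes were never swapped, and no label states that the samples came from separate cultures.

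The proteasome is the main ATP-dependent protease of the cytosol and nucleus. Its core is a barrel of outer alpha rings, which gate the entry, and inner beta rings, which hold the active sites. The regulatory particle recognises ubiquitin-tagged proteins, removes the tag, unfolds the chain with a ring of ATPases and feeds it into the core. In yeast, Rpn4 activates the subunit genes through a shared promoter element and is itself a short-lived substrate of the proteasome, which forms a feedback loop. Proteasomes of starved, non-dividing yeast leave the nucleus and gather in cytoplasmic storage granules.

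Unless another normalization is named, values are log2 ratios of Cy5 over Cy3 after loess normalization within each array, so a positive value is a higher level in growing cells relative to other transcripts on the same array. The mean over the 8 arrays is given with its standard error, and was tested against 0 in limma with Benjamini-Hochberg adjustment over 5650 genes at a threshold of 0.05. The 64 h cells were a single RNA whose own spread this test cannot hold, and any dye bias is part of the mean. These were bulk RNA samples, in which a change in a share of the cells and a change in RNA per cell cannot be told apart. Of the 12512 gene spots on an array, 84.1% to 91.6% exceeded background clearly in Cy5, and 89.5% to 91.1% did in Cy3. The spots of all 35 genes were well above background in both channels on all 8 arrays, and none was saturated. Arrays lay on 2 slides, with 16, 19, 22, 23 and 24 h on slide 1 and 17, 20 and 21 h on slide 2. All arrays within a slide shared a recorded scan date. The files recorded for 20 h and 24 h each matched the other's column of the authors' deposited table. For the correlations, the log2 ratios of each gene were first centred on their mean within each slide. On slide 2 that mean rests on 3 arrays, whose centred values therefore depend on each other. Across genes, the correlation of the 20 h file was -0.47 with the 20 h column and 0.94 with the 24 h column. That of the 24 h file was -0.43 with the 24 h column and 0.83 with the 20 h column. For the 21 h file it was 0.49 with the 21 h column and 0.53 with the 19 h column. These correlations are descriptions over genes, which share arrays and are not independent.

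Growing cells held less RPN4 mRNA than 64 h cells. The subunit genes, which Rpn4 is known to activate, had a median log2 ratio of 0.07 with loess and of 0.40 with median centring. RPN4 (YDL020C) had log2 ratios of -0.86, -1.004, -1.20, -0.99, -1.11, -1.14, -1.23 and -0.94 on the arrays recorded for 16, 17, 19, 20, 21, 22, 23 and 24 h. Every array was below 0, and the arrays at both ends of the recorded times were the least negative. The mean of -1.06 ± 0.05 (SE, n = 8 arrays; limma adjusted p = 4.6e-08) is a level 2.09-fold higher in 64 h cells. It ranked 537 from the lowest of 5650 genes. Of all genes tested, 10.2% were called lower and at least 2-fold lower, and RPN4 was the only one of the 35 that was.

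BLM10 (YFL007W) encodes a large protein that binds the open end of the core and promotes degradation without ubiquitin. Its log2 ratios ran from -0.68 on the 20 h array to -0.31 on the 16 h array, with a median of -0.46. All 8 arrays were below 0, and the 3 arrays of slide 2 were all lower than the 5 of slide 1. The mean was -0.49 ± 0.05 (SE, n = 8; limma adjusted p = 1.2e-05), 1.40-fold higher in 64 h cells. The gene had a second, dimmer probe with a mean of -0.43.

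After loess the 33 subunit genes lay nearer to equality between the populations than most genes did. With median centring this held for the regulatory particle but not for the core, and with the scanner's ratios it held for both. With loess the extremes were -0.25 for RPN12 and 0.60 for PUP1. Of the 33, 30 had a mean within 0.5 of 0, which is 90.9%, against 57.8% of all genes tested. The median size of the mean ratio, without its sign, was 0.14 for subunits and 0.42 for all genes. With median centring 24 of the 33 lay within 0.5 of 0, 72.7% against 54.8% of all genes, and the median sizes were 0.40 and 0.45. The core genes then lay farther from 0 than genes at large, with 6 of 14 within 0.5, 42.9%, and a median size of 0.55. With loess 12 of the 14 lay within 0.5. Of the 19 regulatory particle genes 18 did so with median centring, with a median size of 0.30. With the scanner's ratios 11 of the 14 core genes, 78.6%, and 17 of the 19 regulatory particle genes, 89.5%, lay within 0.5. The share of all genes was then 51.7%. The median sizes were 0.26 for the core, 0.15 for the regulatory particle and 0.48 for all genes. Subunit genes also varied less from array to array, with a median SD over the arrays of 0.11 against 0.16 for all genes. Their spots were brighter, with a median log2 intensity of 12.7 against 10.7 over all genes. The part of spot brightness in the lower SD was not tested. In limma, 15 of the 33 passed as higher in growing cells, 5 as lower, and 13 missed the threshold. With BLM10 and RPN4 the 35 genes gave 15 higher and 7 lower. Among all genes tested 40.3% were called higher and 42.6% lower, so most genes passed this test in some direction. The loess counts by sub-complex below stand against these shares. Those with median centring stand against 41.1% and 40.4%, and those with the scanner's ratios against 44.8% and 39.3%. On all 8 arrays 13 of the 33 subunits were above 0, against 31.4% of all genes, and 2 were below 0, against 35.9%. All 33 subunits lay above RPN4 on each of the 8 arrays. The median of the subunits exceeded RPN4 by 0.89 on the 16 h array to 1.36 on the 23 h array. RPN4 ranked 537 from the lowest of all genes tested, so most genes had a higher mean than RPN4. On those 2 arrays the median of all genes tested was -0.045 and -0.012, with RPN4 at -0.86 and -1.23. Most of the gap was thus shared by genes at large. The share of all genes above RPN4 on every array was not counted.

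**Figure D1:**
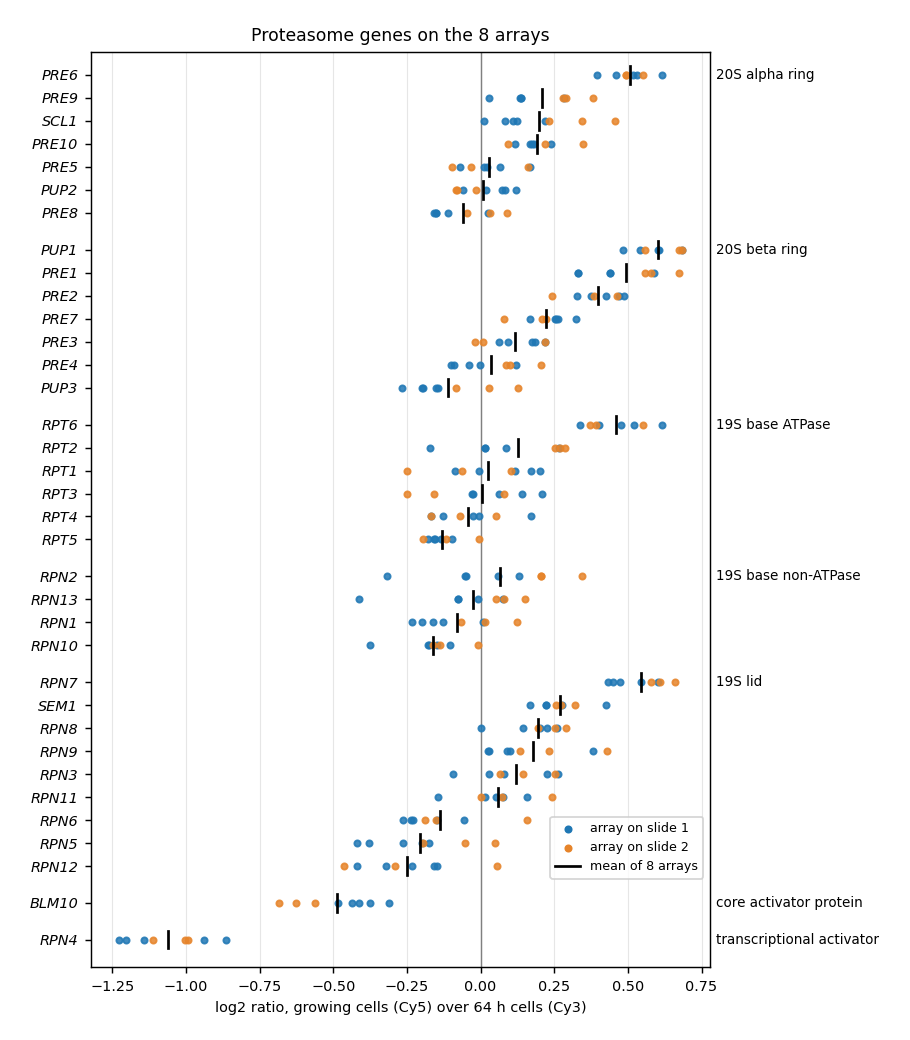
Log2 ratio of growing over 64 h cells for each of the 35 genes (rows, grouped by sub-complex), with 1 point per array coloured by slide and a bar at the mean of 8 arrays, after loess normalization. Subunit means lie between -0.25 and 0.60, while RPN4 and BLM10 lie below 0 on all 8 arrays; several subunit means near 0 change sign under median centring, among them RPN12, RPN6, RPN10 and RPT5.

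**Figure D2:**
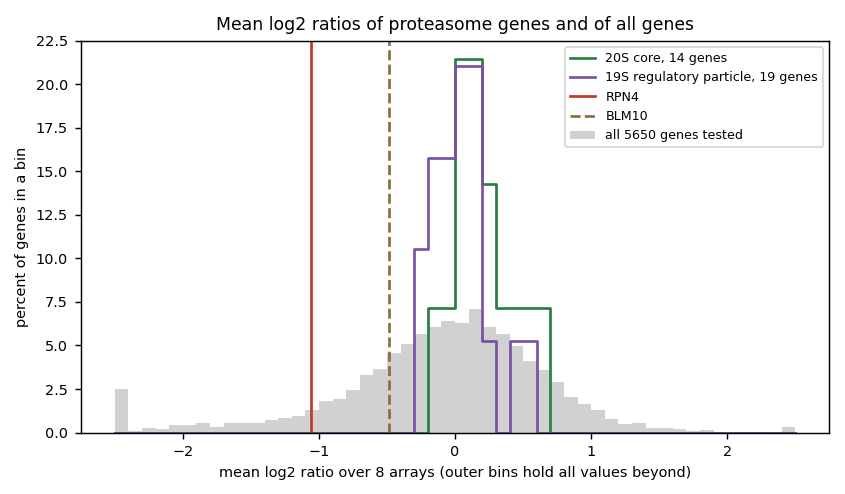
Share of genes (y, percent per bin of mean log2 ratio) against mean log2 ratio over 8 arrays (x), for all 5650 genes tested (grey bars), the 14 core genes and the 19 regulatory particle genes (lines), with RPN4 and BLM10 as vertical lines. The subunit genes fill the middle of the distribution, whereas RPN4 at -1.06 lies in its lower part; outer bins collect all values beyond the axis, and with median centring the core median moves to 0.55.

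In the alpha ring, which gates the core, 4 of 7 genes were higher in growing cells with loess, 0 lower, and 3 missed the threshold. All 7 were called higher with median centring. PRE6 (YOL038W) led, with a lowest value of 0.40, a median of 0.51 and a highest of 0.62. No array of PRE6 was near 0, and its mean was 0.51 ± 0.03 (adjusted p = 6.3e-07). PRE9, the one core subunit gene that yeast can lose and live, stood at 0.21 ± 0.05 with a range of 0.03 to 0.38. SCL1, another ring subunit, ran from 0.01 to 0.46 with a mean of 0.20 ± 0.05, and its 3 slide 2 arrays were its highest. PRE10 was at 0.19 ± 0.04, between 0.09 and 0.35. These 4 were above 0 on every array. The other 3 ring genes straddled 0, with means of -0.06 ± 0.04 for PRE8, 0.01 ± 0.04 for PUP2 and 0.03 ± 0.04 for PRE5.

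In the beta ring 5 of 7 genes were higher with loess and 0 lower, and all 7 were higher with median centring. PUP1 (YOR157C), which encodes the subunit with trypsin-like activity, had the highest mean of the 35 genes with loess, though not with median centring, where PRE6 stood above it. Its values ran from 0.48 on the 23 h array to 0.68, with a median of 0.60, and its mean was 0.60 ± 0.04 (adjusted p = 3e-07), 1.52-fold higher in growing cells. PRE2 (YPR103W), for the chymotrypsin-like activity, ran from 0.24 on the 17 h array to 0.49 on the 16 h array, with a median of 0.41 and a mean of 0.40 ± 0.04 (adjusted p = 1e-05). PRE3 (YJL001W), for the caspase-like activity, was nearer 0. It ran from -0.02 to 0.22 with a median of 0.13, its mean was 0.12 ± 0.04 (adjusted p = 0.027), and the call was lost without the 22 h array (adjusted p = 0.068) or the 23 h array (adjusted p = 0.066). The 3 genes of the active-site subunits were thus all called higher, at different sizes. Among the beta subunits without an active site, PRE1 (YER012W) stood at 0.49 ± 0.04, with a lowest value of 0.33, a median of 0.50 and a highest of 0.67. PRE7 was at 0.22 ± 0.04 and above 0 on all arrays. PRE4 at 0.03 ± 0.04 and PUP3 at -0.11 ± 0.05 did not pass (adjusted p = 0.44 and 0.068), and the slides did not overlap for PUP3, which was higher on slide 2. PUP3 was called lower with the slide as a block (-0.11, adjusted p = 0.015) and without the 20 h array (-0.14, adjusted p = 0.012). With median centring it was called higher (0.50, adjusted p = 9.5e-06).

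In the base of the regulatory particle, 1 of 10 genes was higher with loess, 2 lower, and 7 missed the threshold. With median centring 8 were called higher and 0 lower, and with the scanner's ratios 5 and 1. The base holds the ATPase ring that unfolds substrates. Of its 6 ATPase genes, RPT6 (YGL048C) was higher, with a lowest value of 0.34, a median of 0.44 and a highest of 0.62. Its mean was 0.46 ± 0.04 (adjusted p = 1.8e-06), 1.37-fold, and no other ATPase gene reached 0.34 on any array. RPT5 was lower at -0.13 ± 0.04 (adjusted p = 0.0076). It was below 0 on all 8 arrays, though by less than 0.2 on each, and with median centring it was called higher (0.20, adjusted p = 0.0015). RPT2 at 0.13 ± 0.06, RPT1 at 0.02 ± 0.05, RPT3 at 0.00 ± 0.05 and RPT4 at -0.04 ± 0.05 did not pass, and RPT2 was called higher without the 16 h array (0.17, adjusted p = 0.014) and with the slide as a block (0.13, adjusted p = 0.015). Among the 4 other base genes, RPN10 (YHR200W), a ubiquitin receptor, was lower at -0.16 ± 0.04 (adjusted p = 0.0071). It was below 0 on every array, lowest at -0.38 on the 23 h array, with a median of -0.16, and with median centring it was called higher (0.44, adjusted p = 1.4e-05). RPN13, another ubiquitin receptor of the base, had a mean of -0.03 ± 0.06 and a single low array, -0.41 at 16 h. The scaffold genes RPN1 and RPN2, which hold receptors and substrate shuttles, stood at -0.08 ± 0.05 and 0.07 ± 0.07 and did not pass. RPN1 was called lower without the 20 h array (-0.11, adjusted p = 0.042) and higher with median centring (0.41, adjusted p = 0.00012).

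In the lid, which carries the deubiquitinating subunit, 5 of 9 genes were higher with loess, 3 lower and 1 did not pass. With median centring 8 were called higher and 1 lower, and with the scanner's ratios 6 and 2. RPN7 (YPR108W), a lid scaffold subunit, had the highest mean of the regulatory particle. Its values ran from 0.43 to 0.66 with a median of 0.56, none near 0, and its mean was 0.54 ± 0.04 (adjusted p = 9.7e-07), 1.46-fold. SEM1 (YDR363W-A), a small protein that tethers lid subunits during assembly, stood at 0.27 ± 0.04, above 0 on all arrays. RPN8, the partner of the deubiquitinase, was at 0.20 ± 0.04, and RPN9 at 0.18 ± 0.05. RPN3 was at 0.12 ± 0.05 (adjusted p = 0.043), a call lost when any array other than 19 h was left out, with adjusted p from 0.053 to 0.1. RPN11 (YFR004W), the deubiquitinase itself, had values from -0.15 to 0.24 with a median of 0.06, and its mean of 0.06 ± 0.04 did not pass (adjusted p = 0.24).

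The 3 lid genes called lower with loess were RPN12, RPN5 and RPN6. With median centring RPN12 (0.15, adjusted p = 0.049) and RPN6 (0.42, adjusted p = 1e-04) were called higher. RPN12 (YFR052W), the last subunit to join the lid, ran from -0.46 on the 21 h array to 0.06 on the 20 h array, with a median of -0.26. Only the 20 h array was above 0, and the mean was -0.25 ± 0.06 (adjusted p = 0.0036), the lowest of the 33 subunits with loess. RPN5 (YDL147W), a lid scaffold subunit, had a mean of -0.20 ± 0.06, with its 20 h array at 0.05 and all others below 0. RPN6, which clamps the lid to the core, was at -0.14 ± 0.05 (adjusted p = 0.032). That call was lost without the array for 16, 17, 19, 21, 22 or 24 h, with adjusted p from 0.061 to 0.077.

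Core genes lay above regulatory particle genes by a small margin on every array with loess, and on 6 of 8 with the scanner's ratios. Taking the median of each group per array, the core ran from 0.11 to 0.28 and the regulatory particle from -0.10 to 0.16. The difference was 0.25, 0.16, 0.19, 0.13, 0.09, 0.11, 0.13 and 0.17 in order of recorded time. The core was the higher on 8 of 8 arrays, with a mean difference of 0.15 ± 0.05 (SD, n = 8 arrays). By gene means, the medians were 0.19 for the core and 0.02 for the regulatory particle. The groups overlapped widely. In 187 of 266 pairs of a core gene and a regulatory particle gene, 70.3%, the core gene had the higher mean, and 4 of the 19 regulatory particle genes lay above the core median. In limma with loess 9 core genes were higher and 0 lower, against 6 higher and 5 lower in the regulatory particle. This contrast in calls was smaller under the other normalizations, at 14 and 0 against 16 and 1 with median centring, and 12 and 0 against 11 and 3 with the scanner's ratios. Of all genes tested, 40.3% were called higher and 42.6% lower with loess. The shares were 41.1% and 40.4% with median centring and 44.8% and 39.3% with the scanner's ratios. Within the regulatory particle the median of the gene means was -0.01 for the base and 0.12 for the lid. The contrast between the groups was not tested, since subunits of a group are not replicates of a condition. Core genes also had brighter spots, with a median log2 intensity of 13.1 against 12.2 in the regulatory particle and 10.7 over all genes. The part of spot brightness in the difference was not tested.

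The direction of several subunits depended on how the arrays were normalized. With median centring in place of the intensity-dependent loess curve, 30 of the 35 genes were higher and 3 lower, while all genes gave 41.1% higher and 40.4% lower. With the scanner software's own ratios, 23 were higher and 5 lower, and all genes gave 44.8% and 39.3%. The median over all genes stayed within 0.1 of 0 in each case, at 0.01 and 0.05. The gene means of the core had a median of 0.55 with median centring and 0.26 with scanner ratios, and those of the regulatory particle 0.30 and 0.15. Among the subunits called lower with loess, RPT5, RPN10, RPN6 and RPN12 had means above 0 with median centring, at 0.20, 0.44, 0.42 and 0.15. RPN5 stayed below 0. The difference between core and regulatory particle had the same sign on 8 of 8 arrays with median centring, 0.20 to 0.27, and on 6 of 8 with scanner ratios, -0.02 to 0.23.

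RPN4, BLM10, PUP1, PRE6, PRE1, PRE2, RPN7 and RPT6 each kept their direction and call under all 18 alternatives run on the mean ratio, including each slide alone and each array left out in turn. Their sizes moved. RPN4 ranged from -1.09 to -0.998, with a largest adjusted p of 0.0095. BLM10 ranged from -0.62 to -0.38 and PUP1 from 0.58 to 0.78. PRE6 ranged from 0.48 to 0.90 and PRE2 from 0.36 to 0.73, both highest with median centring. PRE1 ranged from 0.43 to 0.60, RPN7 from 0.50 to 0.66 and RPT6 from 0.43 to 0.56.

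**Figure D3:**
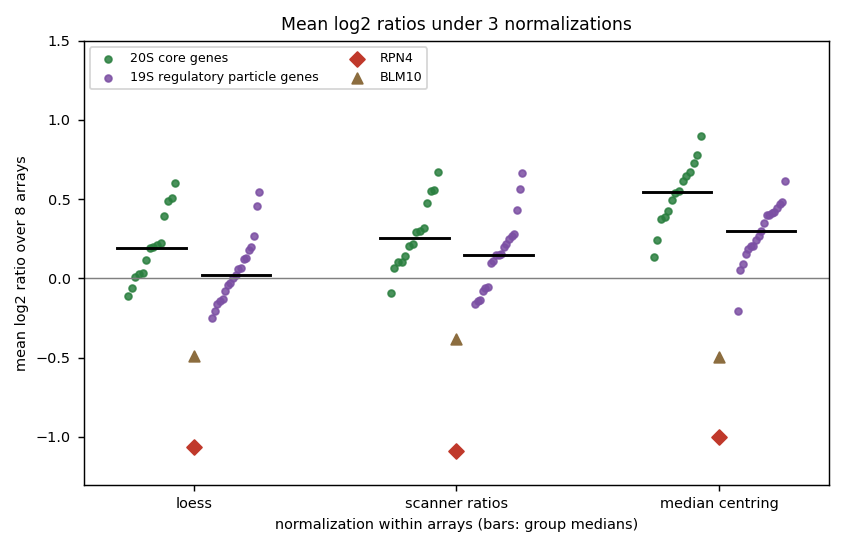
Mean log2 ratio over 8 arrays (y) of the 14 core genes, the 19 regulatory particle genes, RPN4 and BLM10 under 3 normalizations within arrays (x); bars are group medians. Subunit medians rise from 0.19 and 0.02 with loess to 0.55 and 0.30 with median centring, while RPN4 stays between -1.09 and -0.998; RPT5, RPN10, RPN6 and RPN12 move from below to above 0.

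Over the recorded hours no slope of the 35 genes passed, unless the 20 h and 24 h files were exchanged and the slide was a term in the fit. With the arrays as recorded, limma called 0 of 35 slopes, as it called 0% of all genes. An unadjusted p under 0.05 was reached by 0 of the 35, against 385 of all 5650 genes. Slopes lay between -0.04 and 0.04 log2 units per h. Without the 20 h and 24 h arrays, 0 of 35 were called against 8.37% of all genes, and the smallest adjusted p was 0.13, for RPN9. With the 20 h and 24 h files exchanged, 0 of 35 were called against 19.1% of all genes, with a smallest adjusted p of 0.10. In these fits 2 and 6 of the 35 had an unadjusted p under 0.05, against 1419 and 1908 of all 5650 genes. Of the same genes in the authors' deposited table, 0 of 35 had a slope that passed limma, against 34.4% of its 5609 genes, with a smallest adjusted p of 0.067.

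The slide as a block changed one of these counts. As recorded, it left 0 of 35 called and 0% of all genes. On the 6 undisputed arrays it called 0 of 35 against 21% of all genes, with a smallest adjusted p of 0.056 for RPN2. With the files exchanged it called 4 of 35, all rising, against 30.2% of all genes. These were RPT3 at 0.04 ± 0.01 log2 units per h (SE, n = 8; limma adjusted p = 0.027), RPT1 at 0.04 ± 0.01, RPN2 at 0.04 ± 0.01 and the alpha ring gene PRE5 at 0.03 ± 0.01. Of these 4, 3 encode base subunits, and all 4 had means within 0.1 of 0.

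The slope of RPN4 was -0.02 ± 0.02 as recorded, -0.04 ± 0.02 without the disputed arrays and -0.02 ± 0.02 after the exchange (adjusted p = 0.81, 0.19 and 0.39). BLM10 had slopes of 0.00, -0.01 and -0.02, none of which passed. A curved course was called for 0 of the 35 genes as recorded, as for 0% of all genes. The unadjusted p for curvature was under 0.05 for 1 of the 35, against 395 of all 5650 genes.

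**Figure D4:**
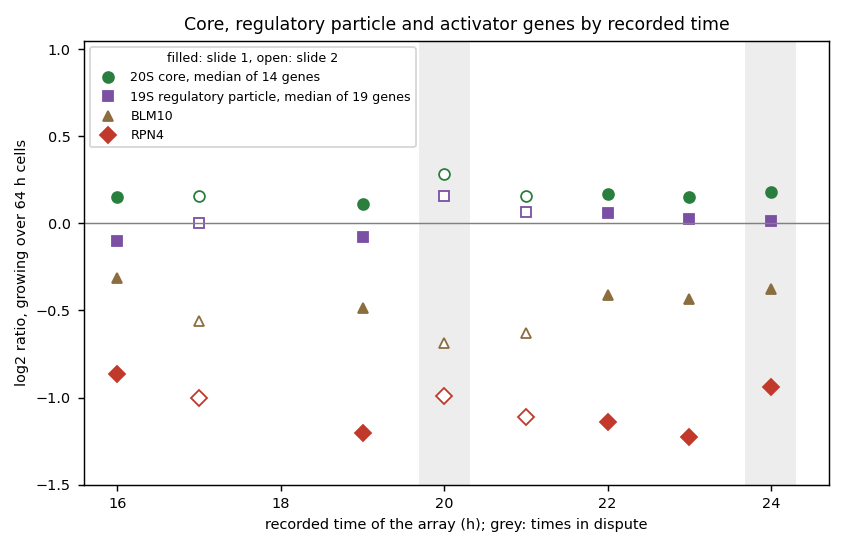
Log2 ratio (y) against recorded time in h (x) for the median of the 14 core genes, the median of the 19 regulatory particle genes, BLM10 and RPN4, with 1 point per array, filled for slide 1 and open for slide 2; the times of the shaded arrays are in dispute. The core median is above the regulatory particle median on every array, by 0.09 to 0.25, and RPN4 lies between -1.23 and -0.86; with scanner ratios the order of the medians holds on 6 of 8 arrays.

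The array recorded for 20 h stood apart for the subunits. Of the 33 subunits, 21 had their highest value there, 63.6% against 28.7% of all genes. On it 30 were above 0, against 17 to 24 on the others. The share of all genes above 0 on each array was not counted. The median of all genes tested was -0.022 on the 20 h array and -0.045 to -0.012 on the others. On that array 15 general stress genes had a median of -1.61, against -2.68 to -1.94 on the others. There 20 ribosome biogenesis genes had a median of 0.18, against 0.74 to 1.101. It lies on slide 2, and 24 of the 33 subunits had a higher mean on slide 2, 72.7% against 49.3% of all genes. All 9 lid genes and all 4 non-ATPase base genes were higher on slide 2, but 2 of the 6 ATPase genes were. The values of the 2 slides did not overlap for SCL1, PUP3 and RPN2, all higher on slide 2, and for BLM10, lower on slide 2. The share of all genes tested without such overlap was not counted, so whether this is unusual is not known. The part of slide and of this array in these differences was not tested. Without the 20 h and 24 h arrays 13 of the 35 genes were higher and 8 lower, and the core exceeded the regulatory particle by the same 0.15. The share of all genes called without these arrays was not counted.

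The counts of calls in the lists that follow stand against 40.3% of all genes tested called higher and 42.6% called lower. Of 10 assembly chaperone genes 4 were higher in growing cells, 3 lower and 3 did not pass, with a median of 0.04. POC4 and IRC25, which encode the partners of a chaperone dimer of alpha ring assembly, were both higher. POC4 ran from 0.85 to 1.51 with a median of 1.13 and a mean of 1.17 ± 0.08 (adjusted p = 9.9e-07), and IRC25 stood at 0.56 ± 0.04. ADD66, which also acts on the alpha ring, was at 0.25 ± 0.04 and NAS6, a chaperone of base assembly, at 0.35 ± 0.05. TMA17, a stress-induced chaperone of base assembly, was lower at -0.68 ± 0.13. It lay between -1.04 and -0.44 on 7 arrays and at 0.27 on the 20 h array, and with median centring it no longer passed (-0.11, adjusted p = 0.45). UMP1, which is enclosed in the maturing core and degraded by it, was lower at -0.25 ± 0.04, but did not pass with median centring (-0.09, adjusted p = 0.073). RPN14, another base chaperone, was at -0.24 ± 0.05. PBA1, NAS2 and HSM3 did not pass.

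Factors that bind or regulate the finished particle were 3 higher, 4 lower and 3 not passed of 10, with a median of -0.07. CUZ1, which links the proteasome to Cdc48 under metal stress, was the highest at 0.48 ± 0.05. ECM29, a protein that tethers core and regulatory particle, stood at 0.34 ± 0.07, and RAD23, a shuttle that carries ubiquitinated proteins, at 0.19 ± 0.05. SPG5, a regulator of the proteasome in stationary phase, was the lowest. It ran from -2.36 to -1.61 with a median of -2.07, all arrays far below 0, and its mean of -2.04 ± 0.07 (adjusted p = 8.2e-09) is a level 4.11-fold higher in 64 h cells. FUB1, an inhibitor of the core, was also lower at -0.97 ± 0.06. HUL5, a ubiquitin ligase of the particle, was at -0.52 ± 0.05 and DDI1, another shuttle, at -0.45 ± 0.05. UBP6, DSK2 and STS1 did not pass.

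Of 18 ubiquitin pathway genes, 2 were higher, 10 lower and 6 did not pass, with a median of -0.20 against -0.02 over all genes tested. With median centring 5 were higher and 9 lower. UBC5 and UBC4 encode near-identical conjugating enzymes, and they lay on opposite sides of 0. UBC5 ran from -2.25 to -1.41 with a median of -1.96 and a mean of -1.93 ± 0.08 (adjusted p = 2.5e-08). UBC4 ran from 0.20 to 1.02 with a median of 0.66 and a mean of 0.64 ± 0.07 (adjusted p = 1.5e-05). The pair did not overlap on any array, although probes of near-identical genes can share signal. UBI4, the stress-induced polyubiquitin gene, stood at -1.87 ± 0.16, with values from -2.43 to -0.91. UBR2, a ligase that marks Rpn4 for degradation, was lower at -0.50 ± 0.06, and its partner gene MUB1 had a mean of -0.04 ± 0.15 with its slides apart, below 0 on slide 1 and above 0 on slide 2. RSP5, an essential ligase, stood at 0.76 ± 0.16, with a mean of 0.38 on slide 1, where UBC4 was the higher at 0.62, and of 1.40 on slide 2. UBI4 was the only gene of these lists with a called slope on the 6 undisputed arrays, rising by 0.12 ± 0.03 log2 units per h (limma adjusted p = 0.044). As recorded 0 of these genes had a called slope. With the files exchanged 5 of the 18 ubiquitin pathway genes rose, against 594 of all 5650 genes and 19.1% called in either direction. UBI4 rose by 0.16 and UBC5 by 0.08 log2 units per h in that fit, as did TMA17 by 0.12 and SPG5 by 0.07.

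Of 4 genes for transcription factors that are known to activate RPN4, 3 were called lower in growing cells, where 42.6% of all genes were. HSF1, the heat shock factor, stood at -0.70 ± 0.04 and YAP1, the oxidative stress factor, at -0.67 ± 0.04, each below 0 on all 8 arrays. PDR1, a drug resistance factor, was at -0.35 ± 0.07, with a mean of -0.12 within slide 2 that did not pass (adjusted p = 0.29). Its paralog PDR3 was at -0.03 ± 0.04 (adjusted p = 0.48). With median centring PDR3 was called lower, at -0.18 (adjusted p = 0.0072).

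**Figure D5:**
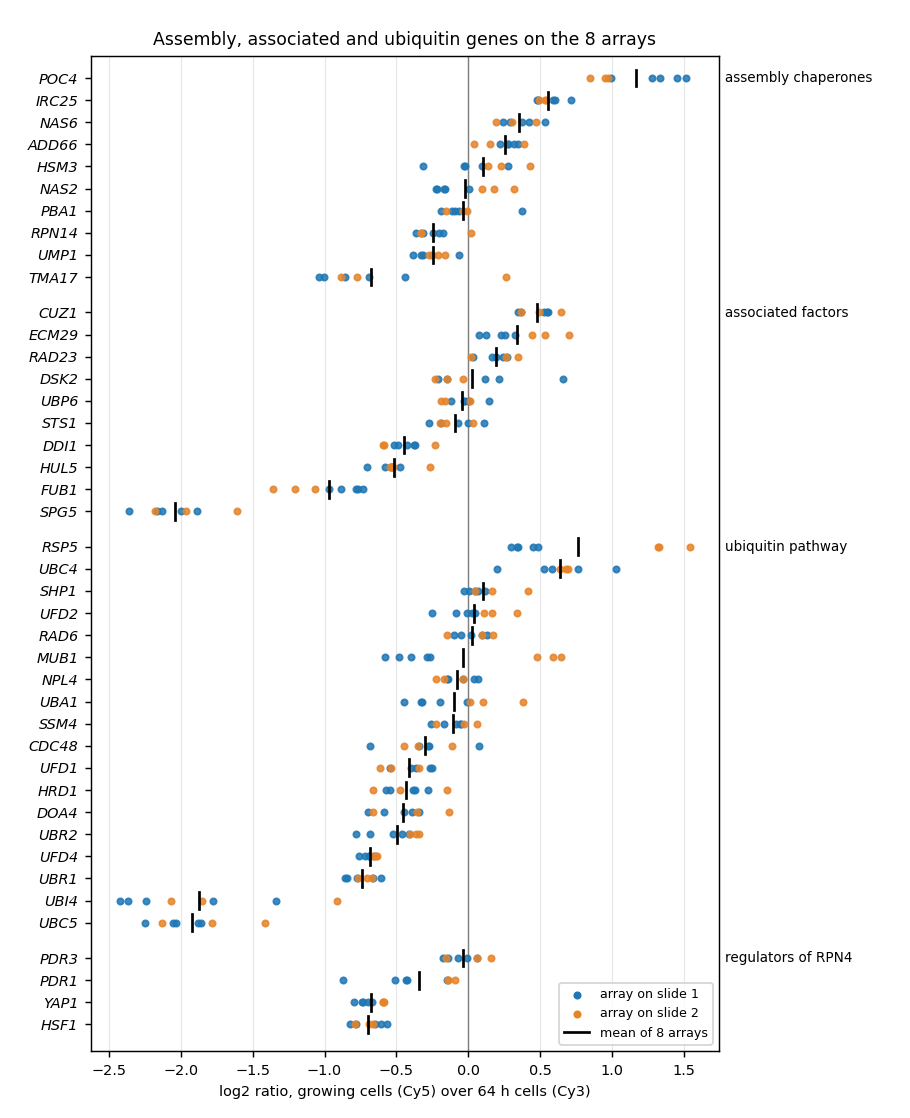
Log2 ratio of growing over 64 h cells (x) for the assembly chaperones, associated factors, ubiquitin pathway genes and regulators of RPN4 (rows), with 1 point per array coloured by slide and a bar at the mean of 8 arrays, after loess normalization. The means spread from -2.04 for SPG5 to 1.17 for POC4, and CDC48 and SSM4 move above 0 with median centring. The slides are farthest apart for RSP5 and MUB1. They also do not overlap for POC4, NAS2, ECM29, FUB1, UBA1, UBR2, UFD2, PDR1 and YAP1. How many of all genes tested show no such overlap was not counted.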

How the data were processed

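Expression was measured on 8 Agilent 2-colour arrays. Spot intensity values in the deposited scanner files were made with Agilent Feature Extraction 10.5.1.1 on a design annotated on sacCer2, per the file headers. They also hold a log10 ratio of red over green, background-corrected and dye-normalized by the scanner software, per the file headers. The authors' deposited table holds log2 values, centred on 0 per gene as judged from its values. How it was normalized is not stated in any source at hand, and its column medians lay between -0.0124 and 0.0147.

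Median signals were background-corrected with normexp (offset 50), since the files held no mean signals, and loess-normalized within arrays, giving controls weight 0 (limma 3.58.1, R 4.3.3). Outlier spots were dropped, the 2 spots of a probe were averaged, and the brightest probe stood for a gene (29 genes had several; of the 35, only BLM10). Genes entered the tests if, in either channel, all spots of the probe were flagged well above background on 4 or more arrays. Symbols came from a RefSeq table of assembly R64, which matched 5737 of 6225 names; coordinates are left out because the builds differ.

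A straight line on centred time was fitted with lmFit and eBayes. The intercept tested the mean ratio, the slope the change per h, and a squared term curvature. The p-values reflect scatter between single arrays, which may be technical. The fits were tested on simulated data. Time fits were repeated without the arrays recorded for 20 h and 24 h and with those files exchanged, and with the slide as a block. Precision is limited by the number of arrays.

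The 35 genes and the other lists were chosen with earlier results of these data known. All 35 are named. From the other lists, the highest and lowest members and those needed to account for a small count are named, and the remaining names were chosen for their known roles. A planned search of promoters for the element bound by Rpn4 was not run, as promoter sequences were not used here.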

Additional observations from a re-analysis of the deposited data

Results flagged for a closer look

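Of 68 genes and group medians checked for 1 array far from the other 7, 4 stood out, each with a gap to the nearest array above Dixon's critical share of the range. Chance flags about 1 in 20 such groups. RPN10 was lowest on the 23 h array at -0.38, the nearest other array being at -0.18. RPN13 was lowest on the 16 h array at -0.41, with the nearest at -0.08. TMA17 was highest on the array recorded for 20 h at 0.27, with the nearest at -0.44. The 20S core median was highest on that same array at 0.28, with the nearest at 0.18. The 16 h array had the fewest Cy5 spots well above background, 84.1%, and the time of the 20 h array is in dispute. The part of either in these values was not tested.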

How the results depend on the processing

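Background correction, dim probes, probe choice, saturated spots and the slide as a block left the counts of 15 higher and 7 lower genes within 1.5 times. The dim-probe, probe and saturation settings could hardly move these counts. All 35 genes were well above background and unsaturated on every array, and 34 had 1 probe. The slide term cannot change a mean, only the spread it is tested against. Median centring gave 30 higher and 3 lower, the scanner's ratios 23 higher, and slide 2 alone, with 3 arrays, 6 higher and 2 lower. The share of all genes called within slide 2 was not counted, so this drop cannot be read as a trait of these genes. Over arrays, the core median averaged 0.55 with median centring and 0.25 with scanner ratios (0.17 with loess). The regulatory particle median averaged 0.32 and 0.14 (0.02 with loess), and their difference 0.24 with median centring. With the files exchanged and the slide as a block 4 slopes passed.

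Some means changed sign. With median centring PRE8 stood at 0.39, PUP3 at 0.50, RPN1 at 0.41, RPN10 at 0.44, RPN12 at 0.15, RPN13 at 0.093, RPN6 at 0.42, RPT4 at 0.053, RPT5 at 0.20, CDC48 at 0.41 and SSM4 at 0.035. With scanner ratios PRE8 stood at 0.10, RPN13 at 0.11 and RPT4 at 0.10. Within slide 1 PRE4 was at -0.022 and RPN2 at -0.046. Within slide 2 PRE8 was at 0.025, PUP2 at -0.059, PUP3 at 0.024, RPN1 at 0.023, RPN13 at 0.094, RPT1 at -0.070, RPT3 at -0.11 and PDR3 at 0.021. Without the 20 h and 24 h arrays RPT1 was at -0.0051 and RPT3 at -0.019, and without background correction RPT3 was at -0.000627. With each array left out, PUP2 ran from -0.0085 to 0.021, RPN13 from -0.052 to 0.028, RPT1 from -0.0020 to 0.063 and RPT3 from -0.026 to 0.040. The cause of these changes was not tested. No paired analysis was possible because the 8 arrays form 1 group. The promoter motif search and its alternatives were not run. With 1 array per time and a single 64 h RNA, the number of arrays limits what can be seen.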
